A study of Homo sapiens with 12 samples.

Results

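ERK feedback and output genes are the genes whose transcription is driven by the kinase ERK and whose products then report or limit its activity. A hand-written list of 10 such genes was examined: the phosphatase genes DUSP4, DUSP5 and DUSP6, the pathway inhibitor genes SPRY2, SPRY4, SPRED1 and SPRED2, and the transcription factor genes ETV4, ETV5 and EGR1. The genes were taken by name, as members of these families. All 10 were among the 60609 genes listed in the count files, and 8 of them passed the filter on low counts that left 13895 genes for testing. DUSP4 and DUSP6 did not pass it and are described by their counts.

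The study asked how gene expression changes when the deubiquitinase USP7 is inhibited in leukemia cells. K562, an established line of chronic myeloid leukemia cells taken at blast crisis, was treated with DMSO (the solvent control, 3 libraries) or with the USP7 inhibitor FT671 at 10 μM (3 libraries), both for 48 h. Total RNA depleted of ribosomal RNA was sequenced, and reads were counted per gene. The 6 ChIP samples of the series were not analysed here, and all values come from 1 cell line, 1 dose and 1 time point. The study describes the 3 libraries of a group as independent experiments.

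Total counts lay between 5320245 and 14250500 in the DMSO libraries and between 4555220 and 11437804 in the FT671 libraries, so that 3 counts, taken as the smallest detectable level, corresponded to 0.211 to 0.659 CPM (counts scaled to a common library size). This floor covers counting error only. DMSO replicate 3 stood apart from the other DMSO libraries, differing from them by 7.55 and 8.73 chi-square units per degree of freedom where the other pairs of replicates gave 2.07 to 3.20. Of 11 markers of K562 and its erythroid character, such as GATA1 and the fetal globin genes, 10 were above 1 CPM in every library, and their summed level was 1282 to 1320 CPM after DMSO and 1135 to 1173 CPM after FT671 (7 lower and 3 higher of 10 tested in edgeR). Of 12 markers of other cell types, 6 were above 1 CPM in every library, MS4A1 was at 0 counts in all, and the summed level was 154.9 to 159 CPM after DMSO and 208.2 to 211.6 CPM after FT671 (0 lower and 3 higher of 6 tested). The 3 higher were EPCAM (mean 60.8 CPM after DMSO and 84.9 after FT671), LYZ (52.7 and 73.8) and CD3D (18.3 and 25.6). Of all genes tested in edgeR, 26.5% were lower and 23.6% higher at an adjusted p of 0.05. The share of counts on the mitochondrial genome was 2.59% to 2.82% after DMSO and 1.47% to 1.76% after FT671. The part of these shifts in the results on ERK genes was not tested. In bulk RNA, fewer cells expressing a gene and less RNA per cell cannot be told apart.

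As background, growth factor receptors and, in chronic myeloid leukemia, the fusion kinase BCR-ABL1 recruit the adaptors GRB2 and GAB2 and the exchange factor SOS, which loads RAS with GTP. RAS then activates RAF, MEK and ERK in turn. ERK phosphorylates transcription factors of the ETS family that bind DNA together with SRF, which switches on immediate-early genes such as EGR1, and it relieves repression by Capicua (CIC), which silences ETV1, ETV4 and ETV5 when ERK is inactive. Among the induced genes are brakes on the same pathway. Dual-specificity phosphatases (DUSPs) remove phosphate from ERK itself, Sprouty proteins (SPRY) act between receptor and RAF, and Sprouty-related proteins (SPRED) bring the RAS inactivator neurofibromin to the membrane. Because they follow ERK activity, transcripts of these genes are widely used as a readout of it. The protein activity of ERK was not measured in the samples used here.

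Promoter windows were searched for motifs of factors known to act downstream of ERK and related signals, and the windows of 2 members and 1 relative with a match are shown here. RefSeq windows on GRCh38.p14, from 250 bases before to 50 bases after each transcription start, were matched for 6 of the 10 genes (9 windows), with DUSP4, DUSP5, ETV4 and ETV5 named only, and for 13 of 14 relatives. Both strands were searched for the CArG box bound by SRF (in 1.29% of 35116 windows in the table), the ETS motif CCGGAAGT (4.14%), the cAMP response element TGACGTCA (1.85%), the Capicua motifs TGAATGAA (1.65%) and TGAATGGA (1.03%), and the EGR motif GCGGGGGCG (5.07%). EGR1 held a pair of CArG boxes, at 105 to 96 and at 83 to 74 bases before its start, SPRY2 held the EGR motif on the opposite strand at 41 to 33 bases, and the relative DUSP1 held the cAMP response element at 125 to 118 bases. The 250 bases before the start are given 5′ to 3′ on the strand of each gene, with the matches in capitals, for EGR1 (chr5:138465229-138465478, plus strand), SPRY2 (chr13:80341127-80341376, minus strand) and DUSP1 (chr5:172771196-172771445, minus strand).
EGR1: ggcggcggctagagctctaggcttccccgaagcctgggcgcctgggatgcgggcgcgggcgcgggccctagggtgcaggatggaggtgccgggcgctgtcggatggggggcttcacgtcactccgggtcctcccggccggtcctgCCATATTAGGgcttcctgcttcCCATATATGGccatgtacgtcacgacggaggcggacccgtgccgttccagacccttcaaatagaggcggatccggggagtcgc
SPRY2: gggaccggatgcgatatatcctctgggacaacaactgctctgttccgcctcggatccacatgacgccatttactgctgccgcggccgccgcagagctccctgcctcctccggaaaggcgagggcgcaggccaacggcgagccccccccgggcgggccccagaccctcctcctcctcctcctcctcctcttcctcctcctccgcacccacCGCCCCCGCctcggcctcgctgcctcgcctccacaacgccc
DUSP1: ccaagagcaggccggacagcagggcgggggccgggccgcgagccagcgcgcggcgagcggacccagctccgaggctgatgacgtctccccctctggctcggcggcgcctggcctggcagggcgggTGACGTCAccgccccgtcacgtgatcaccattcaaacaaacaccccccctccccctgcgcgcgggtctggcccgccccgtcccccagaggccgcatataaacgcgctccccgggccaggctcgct
No match lay in the windows of the other members with an entry. Other relatives held matches that are not printed. The EGR motif lay in DUSP2 and SPRY1, and a CArG box lay in EGR2. DUSP8 held the cAMP response element at 118 to 111 and at 74 to 67 bases before its start. ETV1 held the Capicua motif TGAATGGA, and SPRED3 held TGAATGAA. A match is a description of the letters in the window, and its absence says nothing about binding of the factor.

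In DMSO-treated K562 cells the members covered a wide range of levels. Per kilobase of exon, which allows levels of different genes to be compared, ETV4 was highest after DMSO at 32.8 ± 1.27 CPM per kb (mean ± SD, n = 3 here and below), followed by SPRED2 at 15.8 ± 0.945 and ETV5 at 6.21 ± 0.453. These 3 levels lay apart by more than their spread. SPRY4 (1.87 ± 0.0897), SPRED1 (1.65 ± 0.361), SPRY2 (1.64 ± 0.287), EGR1 (1.53 ± 0.364) and DUSP5 (1.09 ± 0.234) followed, each overlapping its neighbour within mean ± SD. DUSP6 (0.0916 ± 0.0186) and DUSP4 (0.0443 ± 0.0167) were lowest. After FT671, ETV4 (38.5 ± 1.15 CPM per kb), SPRED2 (9.23 ± 0.398) and ETV5 (4.16 ± 0.497) still led, while SPRED1 (0.835 ± 0.0713) lay below SPRY2 (1.43 ± 0.201) and overlapped EGR1 (1.03 ± 0.204) within mean ± SD.

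**Figure D1:**
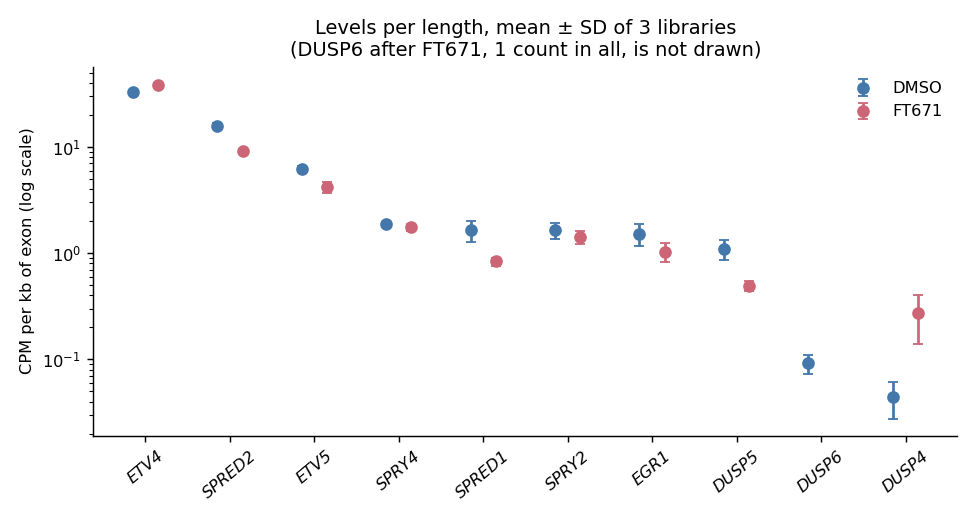
Level of each member in CPM per kb of exon on a log axis, after DMSO (blue) and FT671 (red), as the mean ± SD of 3 libraries, in order of the DMSO level. ETV4 leads with 32.8 and 38.5 CPM per kb, SPRED2 and ETV5 are lower after FT671, DUSP4 is the lowest after DMSO, and DUSP6 after FT671 is not drawn because it rests on 1 count.

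Set against DMSO, FT671 lowered 4 of the 8 tested members (DUSP5, SPRED1, SPRED2 and ETV5), raised 1 (ETV4), and left 3 (SPRY2, SPRY4 and EGR1) not past the threshold, at an adjusted p of 0.05 in edgeR's quasi-likelihood test. Of all 13895 genes tested, 26.5% were lower and 23.6% higher by the same rule. The median log2 fold change (FT671 over DMSO) of the 8 was −0.54, beside −0.01 over all genes tested. At an adjusted p of 1e-05 in edgeR, SPRED2 alone was lower and no member was higher (also 0 by DESeq2's Wald test), where 4.13% of all genes were lower and 1.79% higher. At an unadjusted p under 0.05 in edgeR, no further member was called. Every FT671 library lay below every DMSO library for 5 of the 8 tested members, against 30.3% of all genes tested, and above for 1, against 26.8%. DUSP5 is part of these counts and of the median, although it passed the filter through the DMSO libraries, where it was higher. With at least 10 counts required in every library, which left DUSP5 out, 3 members were lower at 0.05. That edgeR fit called 3407 of 11946 genes lower. Changes were thus common among all genes, and these counts describe the list without setting it apart.

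**Figure D2:**
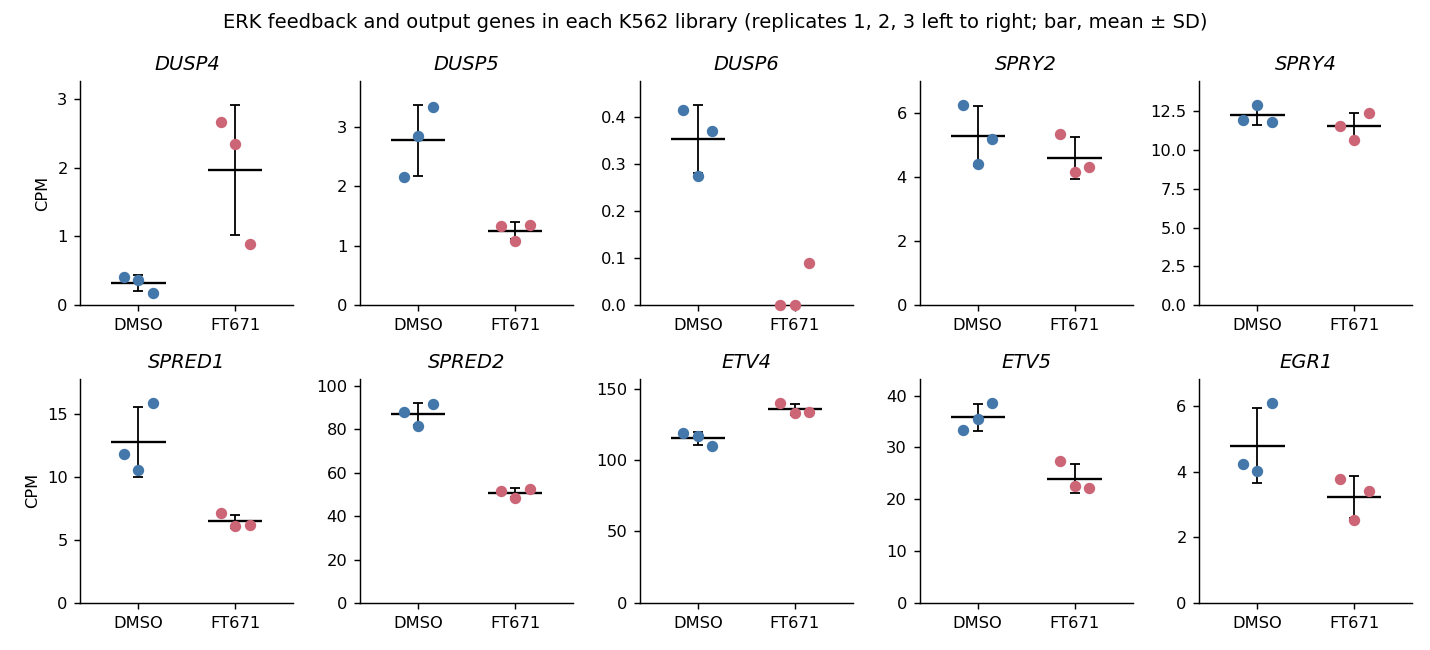
CPM of each member in each library (replicates 1, 2 and 3 from left to right in each group, DMSO blue, FT671 red), with bars for the mean ± SD of 3 libraries and each vertical axis starting at 0. The groups are apart for DUSP5, SPRED1, SPRED2, ETV4, ETV5 and EGR1, they overlap for SPRY2 and SPRY4, and DUSP4 and DUSP6 rest on few counts in each library.

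Of the 3 phosphatase genes, DUSP5 was tested and fell, and DUSP4 and DUSP6 are given by their counts. DUSP5 (ENSG00000138166, chr10:110497907-110511533, hg38, plus strand) encodes a nuclear phosphatase that acts on ERK alone and anchors it in the nucleus. It stood at 2.15, 2.84 and 3.33 CPM in DMSO replicates 1, 2 and 3 and at 1.33, 1.08 and 1.34 CPM in FT671 replicates 1, 2 and 3. All FT671 libraries were below all DMSO libraries, and the mean fell from 2.77 ± 0.593 to 1.25 ± 0.147 CPM, a log2 fold change of −1.05 ± 0.313 (SE, adjusted p = 0.0121, edgeR). These levels rest on 31, 31 and 18 counts after DMSO and on 6, 6 and 15 after FT671, and by DESeq2's Wald test the adjusted p of DUSP5 was 0.0814. The FT671 libraries by themselves would not have passed the filter on low counts, so that DUSP5 entered the test through the DMSO libraries, where it was higher.

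DUSP4 (ENSG00000120875, chr8:29333064-29350684, minus strand), a nuclear phosphatase of ERK and of the stress kinase JNK, had 6, 4 and 1 counts after DMSO and 12, 13 and 10 counts after FT671, although the FT671 libraries held fewer reads on average. In CPM this was 0.415, 0.366 and 0.185 against 2.67, 2.35 and 0.894. The groups did not overlap, but the FT671 libraries themselves were uneven, with replicate 3, the deepest of them, the lowest. Pooled over libraries, 11 against 35 counts gave a ratio of 4.61 (FT671 over DMSO, 95% interval 2.29 to 10.1, exact conditional binomial, counting error only), and without FT671 replicate 3 the ratio was 6.96. Without a filter on low counts, edgeR gave DUSP4 a log2 fold change of 2.22 (adjusted p = 0.000193), in a fit that called 9.74% of 31316 genes higher. DESeq2's Wald test gave DUSP4 2.46 (adjusted p = 0.00523), where 2719 of 16302 genes were higher at 0.05. Adjusted p-values of the unfiltered edgeR fit cannot be set beside those of the filtered one. There SPRED2 had 2.68e-13 in place of 7.00e-06, and ETV4 had 0.141 in place of 0.0167.

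DUSP6 (ENSG00000139318, chr12:89347235-89352501, minus strand), the cytoplasmic phosphatase selective for ERK and among the most used transcript readouts of its activity, was close to absent from these cells. It had 6, 3 and 2 counts after DMSO (0.415, 0.275 and 0.370 CPM) and 0, 0 and 1 counts after FT671 (0.0894 CPM in replicate 3). The count of 0 in FT671 replicates 1 and 2 allows up to 3 counts, or 0.659 and 0.535 CPM, which is above the DMSO level, so that neither library could have shown a difference by itself. Pooled, 11 against 1 counts gave a ratio of 0.132 (FT671 over DMSO, 95% interval 0.00306 to 0.906, counting error only), and the adjusted p without a filter was 0.129 in edgeR. An unnamed long noncoding RNA on the opposite strand shares 1105 exonic bases with DUSP6 and had 0 counts in all libraries.

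The Sprouty and SPRED genes, which encode inhibitors of the step from receptor to RAF, were each represented by a pair of members. Both SPRED genes fell, and neither Sprouty gene passed the threshold. SPRED1 (ENSG00000166068, chr15:38252836-38357249, plus strand), the gene mutated in Legius syndrome, stood at 11.8, 10.5 and 15.9 CPM after DMSO and at 7.11, 6.13 and 6.17 CPM after FT671. The groups were apart, with DMSO replicate 3 the highest of all. The mean of SPRED1 fell from 12.8 ± 2.80 to 6.47 ± 0.552 CPM, a log2 fold change of −0.95 ± 0.185 (SE, adjusted p = 7.29e-04, edgeR), and without DMSO replicate 3 the log2 fold change was −0.82 (adjusted p = 0.000161, edgeR).

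SPRED2 (ENSG00000198369, chr2:65310851-65432637, minus strand), its close relative with the same partner neurofibromin, was the more abundant SPRED gene and the member with the smallest p. Its levels were 88.1, 81.4 and 91.7 CPM after DMSO and 51.5, 48.4 and 52.6 CPM after FT671. The lowest DMSO library was far above the highest FT671 library. SPRED2 fell from 87.1 ± 5.20 to 50.8 ± 2.19 CPM, a log2 fold change of −0.77 ± 0.0860 (SE, adjusted p = 7.00e-06, edgeR), and was past 0.05 under 15 of 15 alternative analyses. It was no longer past 1e-05 when any library other than DMSO replicate 3 was left out, with an adjusted p in edgeR of up to 0.000168.

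SPRY2 (ENSG00000136158, chr13:80335976-80341126, minus strand), an inhibitor of RAS activation that binds GRB2, stood at 6.23, 4.40 and 5.18 CPM after DMSO and at 5.33, 4.15 and 4.29 CPM after FT671. The groups overlapped, and the log2 fold change of SPRY2 was −0.24 ± 0.217 (SE, adjusted p = 0.373, edgeR). SPRY4 (ENSG00000187678, chr5:142310427-142326455, minus strand), a Sprouty protein that also restrains RAF, stood at 12.0, 12.9 and 11.8 CPM after DMSO and at 11.5, 10.6 and 12.4 CPM after FT671. These groups overlapped as well, and the log2 fold change of SPRY4 was −0.07 ± 0.138 (SE, adjusted p = 0.678, edgeR), with the sign turning under a correction for exon length. SPRY4-AS1, a long noncoding RNA on the opposite strand that overlaps SPRY4 but shares 0 exonic bases with it, had 26, 19 and 3 counts after DMSO and 8, 5 and 11 after FT671. The standard errors allow for changes of some size in either gene, and a missed threshold does not show that their levels were equal.

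SPRED and Sprouty genes were compared directly inside each library, where no scaling between libraries enters. SPRED1 and SPRED2 together had 5.49, 5.31 and 6.33 counts per count of SPRY2 and SPRY4 after DMSO and 3.47, 3.68 and 3.51 after FT671, a mean of 5.71 ± 0.542 against 3.56 ± 0.111. The groups did not overlap (two-sided exact permutation p = 0.1, the smallest that 3 against 3 libraries can give). This ratio and 2 more given below were chosen after the values of the genes had been seen, and each of the 3 has the same p of 0.1 by the exact permutation test.

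ETV4 and ETV5, the PEA3-type ETS factors that carry ERK signals to target genes and are held down by Capicua, moved in opposite directions. ETV4 (ENSG00000175832, chr17:43527844-43579620, minus strand) stood at 119, 117 and 110.2 CPM after DMSO and at 140.1, 133 and 134 CPM after FT671. All FT671 libraries were above all DMSO libraries, by a small margin: ETV4 rose from 115.2 ± 4.47 to 135.5 ± 4.05 CPM, a log2 fold change of 0.23 ± 0.0723 (SE, adjusted p = 0.0167, edgeR). The call was lost without FT671 replicate 1 (log2 fold change 0.21, adjusted p = 0.0605), without a filter on low counts (0.19, adjusted p = 0.141) and with all libraries thinned to the smallest total (0.20, adjusted p = 0.0632), all in edgeR. ETV4 shares 68 exonic bases with DHX8, a splicing helicase gene on the opposite strand, which stood at 106.5 ± 3.89 CPM after DMSO and 102.2 ± 2.68 CPM after FT671 (log2 fold change −0.05, adjusted p = 0.562, edgeR), and the strand setting of the counting is not given in the sources used here.

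ETV5 (ENSG00000244405, chr3:186046314-186110318, minus strand) stood at 33.4, 35.5 and 38.6 CPM after DMSO and at 27.3, 22.6 and 22.2 CPM after FT671. The groups were apart, and ETV5 fell from 35.8 ± 2.62 to 24.0 ± 2.87 CPM, a log2 fold change of −0.59 ± 0.115 (SE, adjusted p = 8.00e-04, edgeR), past 0.05 under 15 of 15 alternatives with log2 fold changes of −0.67 to −0.49. Within each library, ETV5 had 0.282, 0.304 and 0.351 counts per count of ETV4 after DMSO and 0.195, 0.170 and 0.166 after FT671. The ratio was thus lower in every FT671 library, with means of 0.312 ± 0.0352 and 0.177 ± 0.0157 (two-sided exact permutation p = 0.1, the smallest possible).

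EGR1 (ENSG00000120738, chr5:138465479-138469303, plus strand), the immediate-early zinc finger factor with the CArG boxes printed above, stood at 4.22, 4.03 and 6.10 CPM after DMSO and at 3.78, 2.53 and 3.40 CPM after FT671. Every FT671 library was below every DMSO library, but DMSO replicate 3 was far above the other DMSO libraries and the highest FT671 value lay close under the lowest DMSO value. The means of EGR1 were 4.78 ± 1.14 and 3.23 ± 0.641 CPM, and the log2 fold change of −0.50 ± 0.247 (SE) did not pass the threshold (adjusted p = 0.110, edgeR). It passed it under 0 of 15 alternatives, with an adjusted p of 0.0561 to 0.297 across edgeR and DESeq2, and without DMSO replicate 3 the log2 fold change was −0.36.

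Relatives of the members in the same families show whether the members stand for their families. Of 14 relatives, 8 were tested in edgeR, 2 were lower, 4 were higher and 2 did not pass 0.05. By the same rule, 26.5% of all genes tested were lower and 23.6% higher. At 1e-05, 1 relative was lower and 2 were higher, beside 4.13% lower and 1.79% higher of all genes tested. The median log2 fold change of the tested relatives was 0.37, beside −0.01 over all genes tested. SPRY1 is part of the 4 higher and of this median, although it passed the filter through the FT671 libraries, where it was higher. With at least 10 counts required in every library, which left SPRY1 out, 3 relatives were higher at 0.05. That edgeR fit called 2990 of 11946 genes higher. Among the phosphatases that act in the cytoplasm on ERK, as DUSP6 does, DUSP7 and DUSP9 changed in opposite directions and by more than any tested member.

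DUSP7 stood at 35.9, 35.0 and 35.9 CPM after DMSO and at 13.1, 11.2 and 11.1 CPM after FT671. DUSP9 stood at 9.14, 8.79 and 6.47 CPM after DMSO and at 30.2, 26.5 and 26.1 CPM after FT671. Neither gene showed any overlap between the groups. DUSP7 fell from 35.6 ± 0.526 to 11.8 ± 1.14 CPM (log2 fold change −1.61 ± 0.115 SE, adjusted p = 1.47e-07, edgeR), and DUSP9 rose from 8.13 ± 1.45 to 27.6 ± 2.26 CPM (log2 fold change 1.70 ± 0.141 SE, adjusted p = 4.85e-07, edgeR). DUSP7 had 3.93, 3.98 and 5.54 counts per count of DUSP9 in the DMSO libraries and 0.434, 0.422 and 0.425 in the FT671 libraries. The more abundant of the pair after DMSO was thus the less abundant after FT671 in every library by read count, with mean ratios of 4.49 ± 0.917 and 0.427 ± 0.00629 (two-sided exact permutation p = 0.1, the smallest possible).

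DUSP1, the immediate-early nuclear phosphatase whose promoter is printed above and which acts on ERK, JNK and p38, rose from 45.1 ± 3.39 to 97.6 ± 4.58 CPM (log2 fold change 1.10 ± 0.0873 SE, adjusted p = 3.06e-07, edgeR). DUSP10, which acts on JNK and p38 rather than ERK, rose from 45.4 ± 1.90 to 68.7 ± 1.31 CPM (log2 fold change 0.59, adjusted p = 7.03e-05, edgeR). DUSP8 and DUSP16, of the same stress kinase group, had log2 fold changes of 0.16 (adjusted p = 0.357) and −0.16 (adjusted p = 0.170) in edgeR, and their groups overlapped. DUSP2, a nuclear phosphatase of lymphoid cells, had 0 counts in all libraries.

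SPRY1, a relative of SPRY2 and SPRY4, rose at a low level from 1.21 ± 0.104 to 3.51 ± 0.247 CPM (log2 fold change 1.49 ± 0.269 SE, adjusted p = 4.07e-04, edgeR). SPRY1 had 19, 13 and 6 counts after DMSO, so that it passed the filter through the FT671 libraries, where it was higher. SPRY3 had 0 counts in all libraries, and SPRED3, with 16, 4 and 3 counts after DMSO and 2, 0 and 4 after FT671, was not tested. ETV1, the other PEA3-type factor, fell from 29.9 ± 2.03 to 16.8 ± 1.82 CPM (log2 fold change −0.84 ± 0.119 SE, adjusted p = 5.55e-05, edgeR), so that of the 3 Capicua-repressed ETS genes ETV1 and ETV5 were lower and ETV4 was higher. EGR2 and EGR4 had 1 count each over all 6 libraries, and EGR3 had 6, 5 and 2 counts after DMSO and 2, 0 and 2 after FT671.

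**Figure D3:**
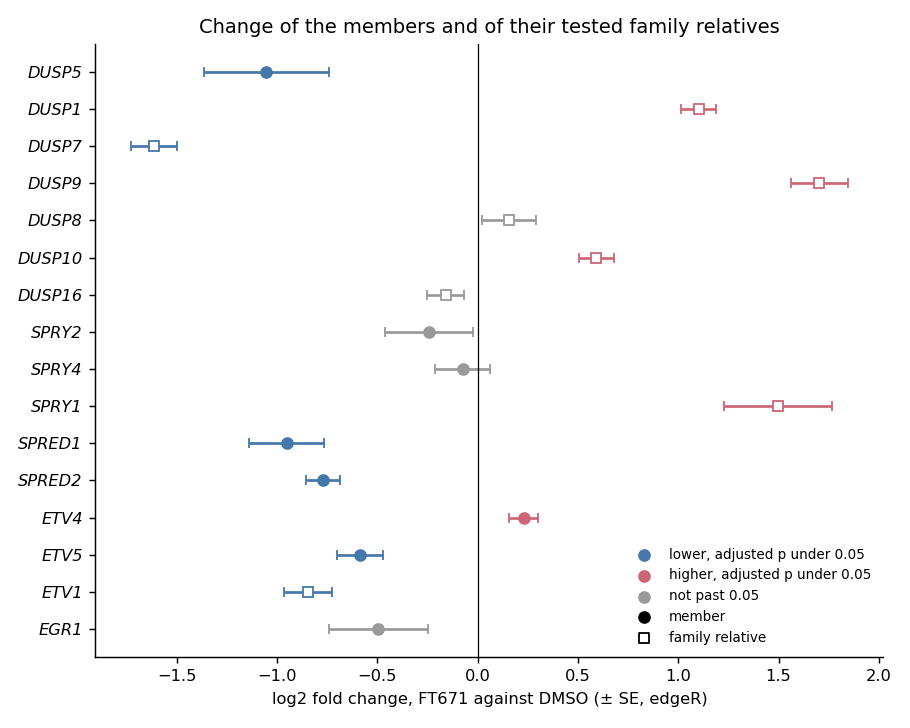
Log2 fold change (FT671 over DMSO, edgeR) with its SE for the tested members (filled circles) and their tested relatives (open squares), grouped by family, in blue where lower and red where higher at 0.05 and in grey otherwise. Within the phosphatases the values run from −1.61 for DUSP7 to 1.70 for DUSP9, SPRY1 is at 1.49, and ETV4 lies above 0 while ETV1 and ETV5 lie below.

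The genes around the members were taken from lists written by role. Of 18 transcriptional regulators of ERK outputs, 17 were tested, 12 were lower and 1 was higher at 0.05 in edgeR, where 26.5% of all genes tested were lower and 23.6% higher. The median log2 fold change of the list was −0.68, beside −0.01 over all genes tested. CIC, the repressor of the ETV genes, fell from 98.1 ± 5.35 to 47.2 ± 1.01 CPM (log2 fold change −1.06, adjusted p = 2.76e-07, edgeR), and SRF, the partner of the ETS factors at CArG boxes, fell from 116.7 ± 5.31 to 58.3 ± 1.46 CPM (log2 fold change −1.0, adjusted p = 2.76e-07, edgeR). MRTFB, an actin-regulated SRF coactivator, had a log2 fold change of −0.95 (adjusted p = 1.17e-05) and ETS1 one of −1.34 (adjusted p = 0.00191), both in edgeR. The list holds activators and repressors alike. COP1, the ubiquitin ligase component that marks ETV proteins for degradation, was chosen after its values had been seen and fell from 36.9 ± 3.95 to 23.2 ± 0.0908 CPM (log2 fold change −0.66, adjusted p = 0.000249, edgeR).

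Of 31 genes of the RAS-ERK cascade, 30 were tested, 11 were lower, 5 were higher and 14 did not pass 0.05 in edgeR. By the same rule, 26.5% of all genes tested were lower and 23.6% higher. The median log2 fold change of the list was −0.13, beside −0.01 over all genes tested. SOS2, an exchange factor for RAS, fell from 24.1 ± 6.82 to 6.53 ± 0.239 CPM (log2 fold change −1.85 ± 0.198 SE, adjusted p = 4.80e-06, edgeR). RASA1, a RAS inactivator, also fell (log2 fold change −0.62, adjusted p = 0.00384, edgeR). PEBP1, an inhibitory protein of the cascade, rose from 110.03 to 218.3 CPM (log2 fold change 0.99, adjusted p = 1.64e-07, edgeR), and RRAS, a RAS-related GTPase, rose too (log2 fold change 1.0, adjusted p = 2.19e-05, edgeR). Members of the cascade that drive it and members that limit it were found on both sides.

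Of 8 kinases that ERK and related kinases activate, 7 were tested. At 0.05 in edgeR, 26.5% of all genes tested were lower and 23.6% higher. Of the kinases, 3 were lower and 0 were higher, where 1 was higher under a correction for exon length. At an unadjusted p under 0.05 the number higher was also 0, as it was by DESeq2's Wald test. MKNK2, which phosphorylates the cap-binding protein eIF4E, fell from 229.9 ± 8.72 to 124.2 ± 2.27 CPM (log2 fold change −0.89, adjusted p = 2.76e-07, edgeR). RPS6KA4 had a log2 fold change of −0.90 (adjusted p = 2.53e-04, edgeR) and RPS6KA2 of −0.93 (adjusted p = 0.00825, edgeR; 0.0788 by DESeq2 and 0.0653 without FT671 replicate 3).

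Of 16 other ERK-induced genes, 12 were tested, 4 were lower, 3 were higher and 5 did not pass 0.05 in edgeR, and the median log2 fold change was 0.02. IER2, an immediate-early gene, fell from 60.7 ± 8.71 to 34.1 ± 1.05 CPM (log2 fold change −0.83, adjusted p = 3.65e-05, edgeR), and FOSL1, an AP-1 subunit, fell from 11.1 ± 0.131 to 6.38 ± 0.528 CPM (log2 fold change −0.78, adjusted p = 8.30e-04, edgeR). PHLDA1 had a log2 fold change of −0.74 (adjusted p = 0.00268, edgeR), which did not pass after thinning (adjusted p = 0.0548). HBEGF, a ligand of the EGF receptor, rose at a low level from 0.667 ± 0.292 to 1.71 ± 0.377 CPM (log2 fold change 1.52, adjusted p = 0.00748 in edgeR and 0.0823 by DESeq2). HBEGF had 5, 10 and 4 counts after DMSO, so that it passed the filter through the FT671 libraries, and only 10 of 15 alternatives tested it. The counts of this list stand beside 26.5% lower and 23.6% higher over all genes tested.

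**Figure D4:**
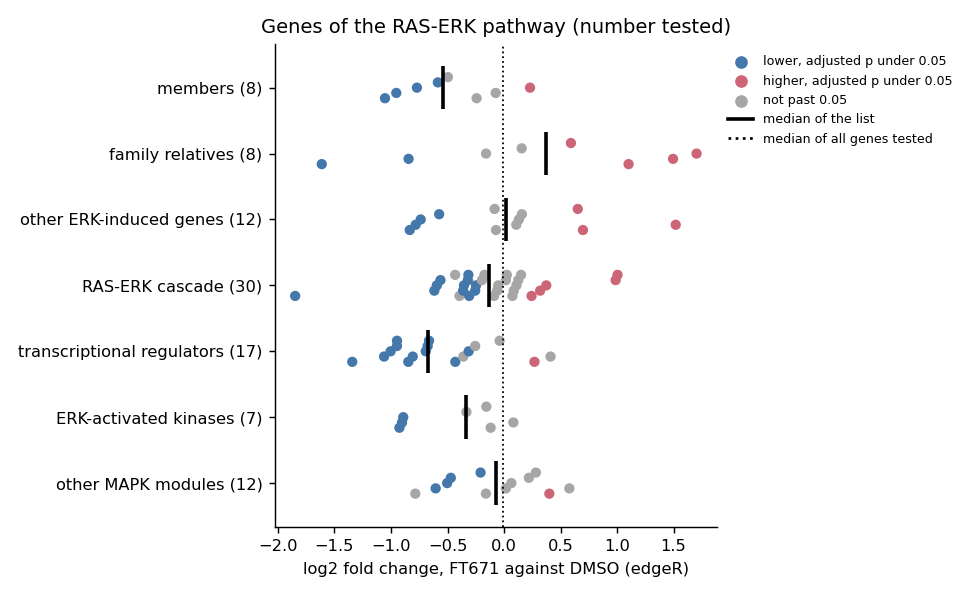
Log2 fold change (FT671 over DMSO, edgeR) of each tested gene in the members, their relatives and the pathway lists, with the median of each list as a bar, the median of all genes tested as a dotted line, and lower genes in blue, higher in red and those not past 0.05 in grey. The median is −0.54 for the members, −0.68 for the transcriptional regulators, −0.13 for the RAS-ERK cascade and 0.02 for the other ERK-induced genes, beside −0.01 over all genes tested.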

How the data were processed

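The authors aligned paired-end reads of K562 RNA libraries depleted of ribosomal RNA to hg38 using STAR's two-pass mode and deposited, for each library, raw read counts per gene that were not normalized. The annotation release, the strand setting and the version of STAR are not given in the sources used here. All 6 files list 60609 genes, of which 60295 had an entry in GENCODE release 44, the source of symbols, positions and exon length. Deposited counts totaled 4555220 to 14250500 per library.

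Genes were filtered with filterByExpr (13895 kept), scaled by TMM and tested with edgeR 4.0.16 (quasi-likelihood, no covariates, R 4.3.3), with Benjamini-Hochberg adjustment over all genes tested and thresholds of 0.05 and of 1e-05, which the study used. The standard error is the size of the log2 fold change divided by the square root of F. CPM use TMM-scaled library sizes, and levels per kb use the union of exons. DESeq2 1.42.0, other scalings and filters, an exon length correction (loess, span 0.3), thinning and leaving out each library were alternatives, and SciPy 1.17.1 in Python 3.11.15 gave intervals and exact permutation tests. The fit was tested on simulated data. Motifs were searched in RefSeq promoter windows.

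The members and all gene lists were chosen with earlier results of these data known. Named were all members and relatives and, in every other pathway list, up to 4 genes with the largest log2 fold change past 0.05. Overlapping genes were sought for the members only. Those above 3 counts in any library (SPRY4-AS1 and DHX8) were named, and an RNA opposite DUSP6 with 0 counts was described. COP1 was added after its values were seen. P-values measure the spread between these libraries, which may be technical.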

Additional observations from a re-analysis of the deposited data

How the results depend on the processing

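SPRED1, SPRED2 and ETV5 were lower under 15 of 15 alternatives and DUSP5 under 13 of the 14 that tested it, the exception being DESeq2's Wald test. The number of members lower at 1e-05 (1) was 3 without a filter on low counts and 0 to 1 with a library left out. The number higher at 0.05 (1) was 2 by DESeq2's Wald test, 0 after thinning and 0 to 2 with a library left out. DUSP4 entered the test when any DMSO library or FT671 replicate 3 was left out. Genes higher in the RAS-ERK cascade (5) numbered 3 with library totals alone or no filter and 2 to 6 with a library left out. Among transcriptional regulators (1) they numbered 0 with library totals alone, no filter or thinning and 0 to 1 with a library left out. Under the exon length correction, with or without the replicate block, 1 ERK-activated kinase was higher in place of 0, and in the other MAPK modules 2 were higher in place of 1, where thinning gave 0 and leaving out a library 0 to 2. In those modules 1 gene was lower by DESeq2's Wald test in place of 4, and 2 to 4 with a library left out. SPRY4 turned to 0.036 with the exon length correction (0.031 with the block), and DHX8 to 0.10 (0.10 with the block). The DUSP6 pooled ratio was 0 without FT671 replicate 3. The causes were not tested.

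Deviations of same-numbered libraries correlated at 0.115, −0.0605 and 0.140 across genes, beside a mean of −0.0347 for libraries of other numbers. Replicate 3 matched its own number best in both directions, replicate 1 from the DMSO side only, and replicate 2 from neither side. These values do not settle whether the replicate numbers pair the libraries. With the replicate block, 4 members were lower and 1 higher, as without it.

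Depth limits the low genes: DUSP4, DUSP6 and DUSP5 rest on few counts, and the depth of the smallest library, 4555220 counts, sets the floor at 0.659 CPM.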

Other observations

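Of 14 genes of the other MAP kinase modules (JNK, p38, ERK5 and MAPK6, which encodes ERK3), 12 were tested, 4 were lower and 1 was higher at 0.05 in edgeR, with a median log2 fold change of −0.07, where 26.5% of all genes tested were lower and 23.6% higher. MAP2K5, the kinase upstream of ERK5, fell from 73.0 ± 3.73 to 48.1 ± 3.0 CPM (log2 fold change −0.61, adjusted p = 8.19e-05, edgeR), and MAPK7, which encodes ERK5, fell from 10.5 ± 0.907 to 7.57 ± 0.758 CPM (log2 fold change −0.50, adjusted p = 0.0163, edgeR), a call kept under 9 of 15 alternatives and lost by DESeq2's Wald test (adjusted p = 0.108), under the exon length correction with the replicate block (0.0659), and without DMSO replicate 1 or 2 or FT671 replicate 2 or 3. MAP2K4, a kinase upstream of JNK, had a log2 fold change of −0.47 (adjusted p = 0.0131 in edgeR and 0.0526 by DESeq2). MAPK12, a p38 kinase, had a log2 fold change of 0.40 (adjusted p = 0.0122, edgeR), which did not pass without FT671 replicate 3 (adjusted p = 0.0535) or after thinning (0.0775).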
